A study of Mus musculus with 15 samples.

Results

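The comparison described here set MLL-AF9 leukemic bone marrow cells of GFI1 36N/36N genotype that had been exposed to temozolomide (TMZ) against the same kind of cells left untreated. Its members were all genes of the deposited table that holds both groups whose value reached 10 in at least 3 of the 6 libraries, and these were 14390 of 17775 genes, measured in 6 of the 15 samples of the series. Both groups came from C57BL/6 mice in which the murine Gfi1 locus expresses the 36N variant of human GFI1. Lineage-depleted cells of these mice had been given the MLL-AF9 oncogene and GFP on a retrovirus, sorted for GFP, transplanted into lethally irradiated mice (7 and 3 Gy) and passed on through mice given 3 Gy. RNA was taken from total, unsorted marrow cells of quaternary leukemic recipients, so each library can hold host cells as well as leukemic cells. The TMZ group (libraries 4, 5 and 6) received 50 µg/ml for 20 h before RNA isolation, and the untreated group had 3 libraries with the same numbers. Whether untreated cells spent that time in culture, and whether the groups were prepared or sequenced together, is not given in the sources used here, so TMZ, culture and preparation cannot be told apart. The labels do not say that the libraries of a group came from separate mice or cultures, so p-values measure only the spread between these libraries. A second genotype, 36S, expresses unaltered human GFI1 at the same locus and was used as a comparison, with 3 untreated and 3 TMZ libraries.

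TMZ is a drug that adds methyl groups to the bases of DNA. Its O6-methylguanine lesions are reversed by MGMT, and where they persist, mismatch repair acts on them at replication, which leads to strand breaks, checkpoint signalling and p53 target expression. MLL-AF9 fuses part of KMT2A to part of MLLT3 and holds HoxA, Meis1 and related genes of immature myeloid cells at a high level. GFI1 is a repressor of transcription that steers myeloid progenitors towards neutrophils, while GATA2, GATA1 and KIT signalling are known for their roles in mast cells, basophils, megakaryocytes and erythroid cells.

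The libraries of the 2 groups stood far apart, also in gene classes that are not tied to any one cell type. Across the genes tested, Pearson correlations of log2(value + 1) were 0.965 to 0.979 within the untreated group, 0.968 to 0.972 within the TMZ group and 0.641 to 0.683 between groups. The deposited values are gene counts that the authors normalized, called signal here, and their column totals in units of 1e6 were 15.7 to 15.8 untreated and 16.7 to 18.3 with TMZ. The number of reads behind a value is unknown. Genes named Hist, which encode the core and linker histones, fell in 64 of 66 cases, with a median log2 fold change of -7.77. Over all genes tested, 33.5% were called lower and 36.3% higher. Hist genes under the filter value of 10 in every TMZ library could enter only where they were high untreated, so their count is fixed in part by the filter. The mitochondrial gene mt-Nd6, whose strand is opposite to that of the other mitochondrial protein genes, fell as well, from 17212, 21494 and 22830 to 1084, 1295 and 884, while mt-Co3 rose from 57173, 60672 and 53037 to 168530, 176800 and 171623. Of 41 ribosomal protein pseudogenes, 30 rose and 6 fell, against 36.3% and 33.5% of all genes. Of the 41, 7 were at 0 in every untreated library with a TMZ mean of at least 100, and 1 was the reverse. Such genes could enter only where they were high. Protein-coding genes whose longest transcript had at most 2243 bases had a median log2 fold change of 0.41, and those with at least 4882 bases had -0.53. The part of RNA selection, RNA quality or library preparation in the results below was not tested.

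Replication-dependent histone messengers end in a stem-loop in place of a poly(A) tail, and all libraries of the series were made with a poly(A) selection module per the labels. The stem-loop letters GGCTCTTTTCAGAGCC (16 bases, transcript strand) are the perfect inverted repeat with a stem of 6 and a loop of 4 bases that GENCODE M21 transcripts of the 5 genes shown here share. They were found in a GENCODE M21 transcript of 29 genes, or 0.0524% of 55341 genes with a transcript. Of the 26 tested, 25 fell and 1, Hist1h2ao, rose. Some that fell, such as Hist2h2aa1 and Hist1h3b, were under the filter value of 10 in every TMZ library. They could be tested only where they were high untreated. The 5 stretches of 30 bases below are shown because the genes share the element, in capitals, and differ in direction.
Hist2h2aa1: ctaaaaaGGCTCTTTTCAGAGCCacccact
Hist1h3b: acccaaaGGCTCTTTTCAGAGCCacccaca
Hist1h2ab: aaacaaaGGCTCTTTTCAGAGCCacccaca
Hist1h1e: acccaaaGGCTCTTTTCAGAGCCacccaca
Hist1h2ao: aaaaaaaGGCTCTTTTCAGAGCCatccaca
Hist2h2aa1 (chr3:96245497-96246082, plus strand, mm10), an H2A gene, had values of 8844, 6743 and 7385 untreated and was listed at 0 in all 3 TMZ libraries. Hist1h3b (chr13:23752267-23752886, plus strand), an H3 gene, went from 2439, 2421 and 2281 to 3.74, 2.71 and 0.977. Hist1h2ab (chr13:23751126-23751598, plus strand), also an H2A gene, went from 2804, 2871 and 2832 to 14.9, 9.66 and 1.01. Neither group came near the other in any of these. The linker histone gene Hist1h1e (chr13:23620629-23622558, minus strand) went from 16777, 13223 and 11478 to 11.5, 5.96 and 7.80. Hist1h2ao (chr13:21810465-21810944, plus strand) rose from 160, 636 and 2641 to 5801, 4921 and 3218, with untreated libraries that differed widely among themselves. Near-identical histone genes can share reads, so the direction of a single copy is uncertain. The exact motif was not found in 40 other Hist genes tested, of which 39 fell. Only these letters were searched, so a stem-loop with other letters was missed. The motif is also not always at the end of the annotated transcript, with 1153 bases after it in that of Hist1h1e. H2afz, a histone variant gene whose messenger is polyadenylated, stood at 6973, 5989 and 6354 untreated and 6805, 6272 and 6343 with TMZ (log2 fold change 0.01). The histone genes Hist1h3b, Hist1h2ab and Hist1h2ao and H2afz were chosen after their values were seen.

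**Figure D1:**
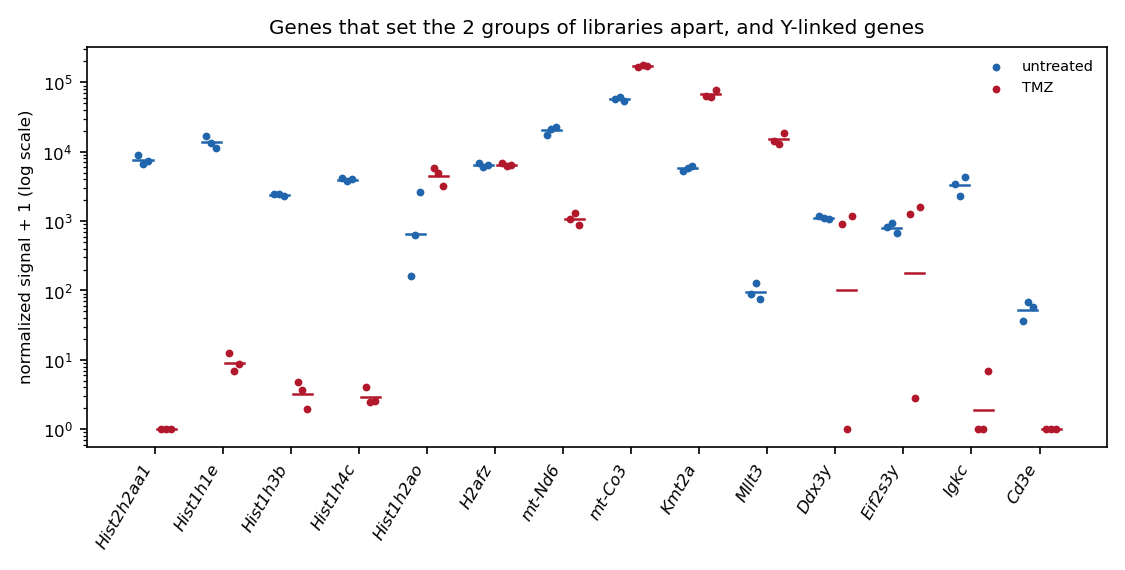
Normalized signal plus 1 on a log axis for 14 genes in each of the 6 libraries of 36N cells, with a bar at the geometric mean of each group. The histone genes Hist2h2aa1, Hist1h1e, Hist1h3b and Hist1h4c dropped to 11.5 or less with TMZ while Hist1h2ao rose and H2afz overlapped, and 1 TMZ library has almost no signal of the Y-linked genes Ddx3y and Eif2s3y.

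The partners of the fusion oncogene were higher with TMZ. Kmt2a rose from 5265, 5880 and 6203 to 63792, 62393 and 78048 (log2 fold change 3.55, SE 0.15, limma adjusted p = 1.97e-06). Mllt3 rose from 87.3, 129 and 73.3 to 14238, 13005 and 18923 (log2 fold change 7.32, SE 0.23, adjusted p = 7.47e-07). In 36S cells Kmt2a stood at 4444, 4866 and 5954 in the untreated table and at 134214, 145114 and 162232 in the TMZ table, and Mllt3 at 142, 92.4 and 126 and at 39525, 39937 and 59998, in tables that were normalized separately. Whether reads of the retroviral fusion were counted with these genes is not given in the sources used here. TMZ library 5 also stood apart: the Y-linked helicase gene Ddx3y was listed at 0 there against 902 and 1204 in the other TMZ libraries and 1181, 1094 and 1064 untreated. The Y-linked translation factor gene Eif2s3y stood at 1.79 there against 1270 and 1608. In the TMZ table, 36S library 2 was likewise listed at 0 for both Ddx3y and Eif2s3y. These 4 genes were chosen after their values were seen. Counts of calls without TMZ library 5 are given beside the results that rest on it.

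The groups differed in most genes. At a limma adjusted p under 0.05, 10037 of 14390 genes (69.7%) were called, 5217 higher (36.3%) and 4820 lower (33.5%) with TMZ. Of these, 3754 were at least 2-fold higher and 3430 at least 2-fold lower (49.9% together), and 760 and 518 passed 16-fold. The median gene had a log2 fold change of 0.06, with -3.53 and 4.11 at the 5th and 95th percentiles. Values of the 2 groups did not overlap in 10727 genes (74.5%). Without TMZ library 5, 4239 genes were higher and 4629 lower of 13578 tested. Leaving out TMZ library 4 gave 4154 and 4545 of 13558, and leaving out TMZ library 6 gave 4260 and 4641 of 13577. The filter was not changed in these fits. A gene that reached 10 only in TMZ libraries could thus no longer be tested, while one that reached it in every untreated library could. This also applies to the counts without TMZ library 5 below. Counts of members below have to be read against the shares of 36.3% higher and 33.5% lower. Of all 14390 genes tested, 750 were under the filter value of 10 in every untreated library and 773 in every TMZ library, so that they could enter only where they were high. Among the 12867 genes that reached 10 in both groups, 4473 were called higher and 4049 lower (66.2% together). Counts of members that reached 10 in both groups have to be read against these.

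Each deposited value also carries a factor that differs from gene to gene. The same 6 libraries appear in 2 further tables beside 36S, normalized separately, and the TMZ change read across those tables, with the medians of all genes aligned, is called the separate-table value here. It has no test. Over 13861 genes it correlated with the joint-table log2 fold change at 0.951, which is across genes and not across replicates. The direction was opposite for 622 of 9538 called genes, for 200 of 6691 called at least 2-fold and for 0 of 894 called at least 16-fold. The separate-table value is given beside each joint-table change below where it moved the fold by over 1.5 times. Among genes above it was 8.05 for Mllt3, 2.18 for Hist1h2ao and -3.38 for mt-Nd6. A move of that size was seen for 68 of 209 called genes named by the rule or in the text.

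**Figure D2:**
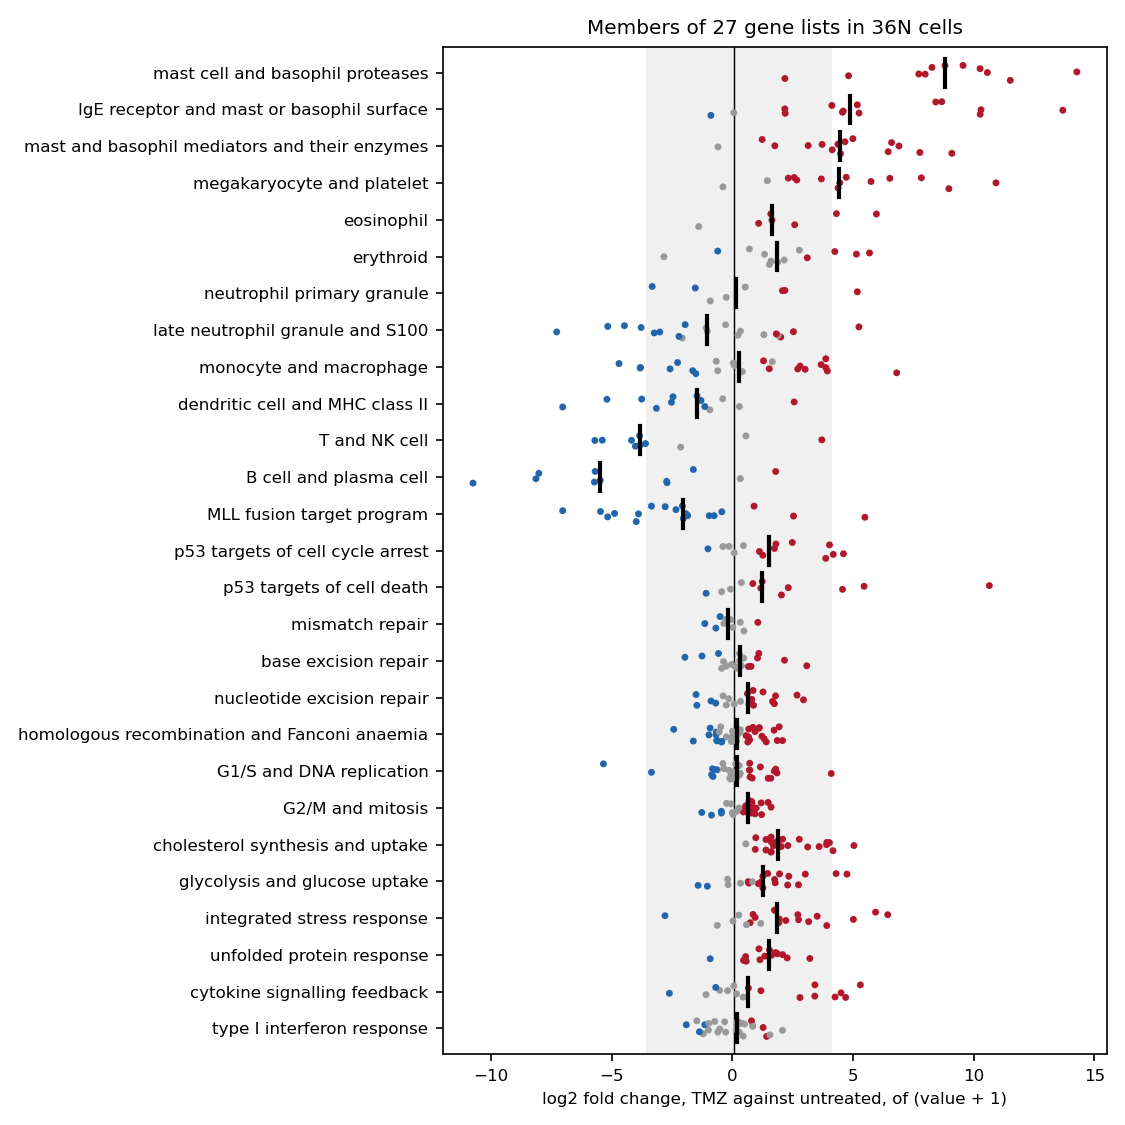
Log2 fold change of (value + 1), TMZ against untreated, for the tested members of 27 gene lists in 36N cells (red: called higher, blue: called lower, grey: not called), with a thick bar at each list's median, a thin line at the median of all genes tested and a grey band from the 5th to the 95th percentile of all genes tested. The 3 mast cell and basophil lists lie at the right, with medians of 8.81, 4.89 and 4.48, and the B cell list at the left, with -5.48.

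Genes of mast cells and basophils were among the largest increases once pseudogenes and unnamed gene models, which also rose by as much as 13.87 on the log2 scale, were passed over. All 11 tested members of the protease list of 14 rose, but 7 of them were under 10 in every untreated library, so their count is fixed in part by the filter. The 4 that reached 10 in both groups all rose, with a median log2 fold change of 8.40. The summed signal of the list went from 2683 to 6208 untreated to 90856 to 256490 with TMZ. Most of the untreated sum came from Ctsg (5606, 4908 and 2560), which is also a neutrophil granule gene and was counted in that list too. With TMZ library 5 left out, 4 members could be tested and all 4 were called higher. Cpa3, a carboxypeptidase of mast cell and basophil granules, went from 436, 28.5 and 59.2 to 42110, 86673 and 91172 (log2 fold change 9.56, SE 0.89, limma adjusted p = 5.83e-05). The untreated libraries spanned more than 10-fold, and every TMZ library was far above them. Mcpt8, a protease of basophils, rose from 156, 90.4 and 39.5 to 9545, 22207 and 44948 (log2 fold change 7.99). Prss34, a basophil serine protease, had 0, 1.39 and 1.53 untreated and 16143, 43077 and 67684 with TMZ, the largest fitted log2 fold change of the rule (14.27, SE 0.57). Cma1, a mast cell chymase, went from 1.29, 2.55 and 0 to 1780, 1422 and 11214. The tryptase genes Tpsb2 and Tpsg1 were listed at 0 in all untreated libraries and stood at 1340, 2120 and 8826 and at 794, 1441 and 1621 with TMZ. A fitted fold for a gene at 0 depends on the pseudocount of 1 and is no bound. In bulk RNA, more cells of a type and more of its RNA per cell cannot be told apart.

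Receptors that these cells use to sense IgE, stem cell factor and interleukin-33 followed. On the list of IgE receptor and surface genes 12 of 14 tested members rose and 1 fell (median log2 fold change 4.89, and 4.59 without 1 member listed at 0 untreated). Among the 12 members that reached 10 in both groups, 10 rose and 1 fell. Fcer1a, the alpha chain of the high-affinity IgE receptor, was listed at 0 in every untreated library and stood at 6202, 18388 and 20376 with TMZ. Ms4a2, its beta chain, rose from 15.96, 20.1 and 2.21 to 7978, 16793 and 17234 (log2 fold change 10.30, SE 0.69, adjusted p = 1.25e-05). Library 4 was the lowest of the TMZ libraries in both chains. Kit, the receptor for stem cell factor, rose from 577, 400 and 183 to 9777, 14001 and 17111 (5.25, SE 0.41). Il1rl1, the interleukin-33 receptor, went from 8.18, 13.2 and 13.9 to 10388, 19144 and 18245, and the prostaglandin receptor gene Ptger3 from 2.31, 1.61 and 5.99 to 1055, 1638 and 2383. The tetraspanin gene Cd63, a granule membrane protein that also stands on the neutrophil list, rose by 5.18 on the log2 scale.

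Enzymes and cytokines that mast cells and basophils release showed the same direction. Of 15 tested members of the mediator list, 14 rose and none fell (median 4.48). Hdc, which makes histamine, rose from 165, 95.2 and 94.5 to 8708, 9028 and 13171 (log2 fold change 6.46, SE 0.26, adjusted p = 1.66e-06). Tph1, the first enzyme of serotonin synthesis, went from 3.69, 0 and 0 to 576, 763 and 1739. Alox5, the 5-lipoxygenase of leukotriene synthesis, rose from 136, 213 and 171 to 11746, 15021 and 25957 (6.60, and 5.58 as separate-table value). The TMZ libraries stood above every untreated library in each of these. Il6 went from 2.80, 0 and 0 to 281, 352 and 396, and Il4 was listed at 0 untreated and stood at 104, 95.2 and 169 with TMZ. Cyp11a1, a steroidogenic side-chain cleavage enzyme, was listed at 0 untreated and stood at 11745, 17449 and 21572. Of the mediator list, 5 members were under 10 in every untreated library, and 9 of the 10 that could be tested without TMZ library 5 were called higher.

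Promoters of these genes were searched for the letters bound by GATA factors, since Gata1 and Gata2 moved with them. Shown are the 250 bases upstream of the start of 4 genes (RefSeq, GRCm38.p6), written 5′ to 3′ on the gene's strand, with AGATAA or TGATAA, read on either strand, in capitals.
Cpa3: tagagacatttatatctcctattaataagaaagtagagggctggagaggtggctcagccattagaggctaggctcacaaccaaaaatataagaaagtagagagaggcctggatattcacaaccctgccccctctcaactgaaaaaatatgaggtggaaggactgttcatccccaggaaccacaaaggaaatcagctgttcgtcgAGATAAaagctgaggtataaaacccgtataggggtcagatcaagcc
Prss34: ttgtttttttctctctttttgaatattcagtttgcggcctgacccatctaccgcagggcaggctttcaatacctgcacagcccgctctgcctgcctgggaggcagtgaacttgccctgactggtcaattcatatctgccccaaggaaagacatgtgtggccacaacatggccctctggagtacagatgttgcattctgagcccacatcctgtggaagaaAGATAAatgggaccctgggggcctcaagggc
Ms4a2: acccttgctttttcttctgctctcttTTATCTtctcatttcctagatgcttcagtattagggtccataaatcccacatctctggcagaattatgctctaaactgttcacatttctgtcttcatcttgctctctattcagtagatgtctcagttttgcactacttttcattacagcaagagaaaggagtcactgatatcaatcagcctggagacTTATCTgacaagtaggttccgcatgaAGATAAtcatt
Fcer1a: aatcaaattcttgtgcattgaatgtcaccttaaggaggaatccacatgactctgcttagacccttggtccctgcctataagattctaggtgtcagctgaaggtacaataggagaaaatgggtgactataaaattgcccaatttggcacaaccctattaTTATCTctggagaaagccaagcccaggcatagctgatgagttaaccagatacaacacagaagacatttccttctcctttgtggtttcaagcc
The Cpa3 stretch lies at chr3:20242182-20242431 (minus strand), that of Prss34 at chr17:25298144-25298393 (plus), that of Ms4a2 at chr19:11623720-11623969 (minus) and that of Fcer1a at chr1:173227230-173227479 (minus). Ms4a2 holds 3 matches and each of the others 1. At least 1 match was present in 14 of 41 promoters of the 3 mast cell and basophil lists together (34.1%), against 18.6% of all 32851 promoters in the table, 11.7% of 13416 promoters of genes tested, 11.6% for genes called higher and 13.2% for genes called lower. By list, matches were in 5 of 10 protease promoters, 7 of 14 receptor and surface promoters, 2 of 17 mediator promoters and 4 of 10 megakaryocyte promoters. A match is a description of letters and not a binding site. A promoter was found for 10576 of the genes tested.

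Transcription factors of the same lineages moved in both directions: of 18 tested, 8 rose and 6 fell (median 0.26). Gata2 rose from 466, 307 and 248 to 9977, 15202 and 16729 (log2 fold change 5.37, SE 0.27, and 4.74 as separate-table value). Gata1 went from 1.04, 0 and 48.5 to 724, 979 and 1117 (7.64, SE 1.29), with 1 untreated library that held most of the untreated signal. Tal1, a partner of GATA factors, rose from 1.61, 7.48 and 46.6 to 1368, 2031 and 2453, and the same untreated library was again the highest. Gfi1b, the GFI1 relative of erythroid and megakaryocyte cells, rose from 22.7, 12.3 and 16.9 to 1801, 1667 and 1069 (6.37, but 3.02 as separate-table value). Cebpa, needed for granulocytes, rose from 1616, 1591 and 1431 to 4966, 4481 and 5443. Mitf, a mast cell factor, had 177, 125 and 214 untreated and 198, 185 and 269 with TMZ and was not called (log2 fold change 0.35, adjusted p = 0.272, and 0.9955 as separate-table value). Spi1, which encodes PU.1, fell from 5665, 5812 and 6079 to 2179, 1548 and 1779, and Mef2c fell by 5.47 on the log2 scale, from 5837, 5464 and 5348 to 265, 85.5 and 84.9 (separate-table value -4.78).

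Megakaryocyte and platelet genes rose in 12 of 14 tested cases and fell in none (median 4.42), with a summed signal of 607 to 1007 untreated and 54247 to 77643 with TMZ. Of the 14, 4 were under 10 in every untreated library, and among the 10 that reached 10 in both groups 8 rose (median 3.56). Itga2b, the platelet integrin subunit that is also present on mast cell progenitors, rose from 14.8, 8.63 and 37.7 to 25483, 35360 and 48084 (log2 fold change 10.92, SE 0.48, adjusted p = 2.25e-06). Pf4, a platelet chemokine, went from 5.85, 0.961 and 13.1 to 2564, 1488 and 6304 (8.97, and 8.35 as separate-table value). Thbs1, thrombospondin, rose from 139, 175 and 231 to 33288, 10771 and 12491. Every TMZ library exceeded every untreated one by an order of magnitude or more in these. Of the 10 members that could be tested without TMZ library 5, 8 were called higher. Eosinophil genes rose in 6 of 7 tested cases (median 1.64), among them the peroxidase gene Epx (7.87, 0 and 6.84 to 235, 129 and 555) and the granule protein gene Prg2 (193, 25.01 and 32.0 to 684, 557 and 3410). Erythroid genes rose in 4 of 13 and fell in 1, with Epor, the erythropoietin receptor, at 0, 2.23 and 12.8 untreated and 236, 192 and 131 with TMZ. The beta-globin gene Hbb-bs, the abundant product of red cells, reached only 153, 63.8 and 118.

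**Figure D3:**
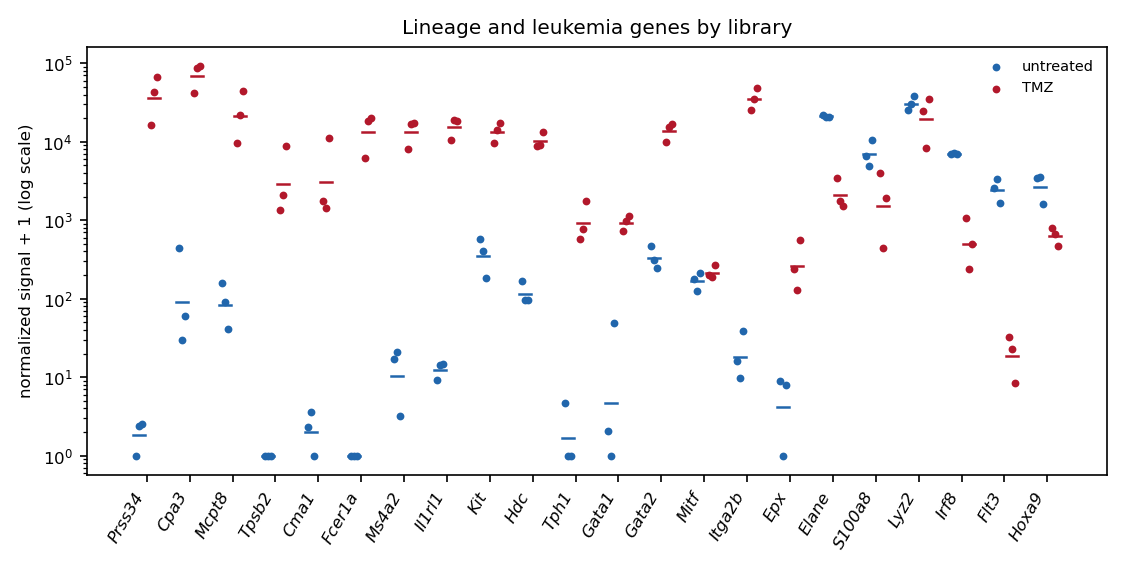
Normalized signal plus 1 on a log axis for 22 lineage and leukemia genes in each of the 6 libraries of 36N cells, with a bar at the geometric mean of each group. Mast cell, basophil and megakaryocyte genes from Prss34 to Itga2b lie higher with TMZ except Mitf, which overlaps, while Elane, Irf8, Flt3 and Hoxa9 lie lower and Lyz2 overlaps.

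Neutrophil and monocyte genes did not move as blocks. In the primary granule list 3 of 8 rose and 2 fell. Elane, neutrophil elastase, fell from 22201, 20587 and 20468 to 3489, 1734 and 1538 (log2 fold change -3.32, SE 0.29, adjusted p = 3.97e-05), whereas Ctsg, cathepsin G, rose from 5606, 4908 and 2560 to 12912, 23075 and 21875. Mpo, myeloperoxidase, overlapped between groups at 23050, 21547 and 18197 untreated and 47914, 35502 and 16129 with TMZ (adjusted p = 0.23). Late granule and S100 genes fell in 8 of 20 cases and rose in 4 (median -1.06), and S100a8 fell from 6575, 4871 and 10503 to 3986, 436 and 1935, with library 5 the lowest. Without TMZ library 5, 7 late granule genes were called higher and 8 lower. The leukocyte antigen gene Ly6g rose by 5.24 on the log2 scale while the cystatin gene Stfa1 fell by 7.28. Monocyte genes rose in 10 of 24 cases and fell in 7 (median 0.28, and 1.15 as separate-table value). F13a1, a coagulation factor gene of monocytes, fell from 36501, 38504 and 40035 to 3604, 579 and 1535 (-4.70, and -4.04 as separate-table value), and Irf8, the factor that directs monocyte and dendritic fate, fell from 7013, 7160 and 6924 to 1059, 236 and 490. Cd14, part of the lipopolysaccharide receptor, rose from 41.9, 50.0 and 61.6 to 1040, 587 and 702, and the Fc receptor gene Fcgr1 rose by 6.81 (6.09 as separate-table value). Lyz2, lysozyme, was not called, and library 5 was again the lowest of its group (24712, 8417 and 34595 against 25130, 30494 and 37786).

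B cell, T cell and antigen presentation lists held more genes that fell than rose, in part through members that could pass the filter only where they were high untreated. B cell and plasma cell genes fell in 9 of 11 tested cases and rose in 1, and 6 of the 11 were under 10 in every TMZ library. Of the 5 that reached 10 in both groups, 3 fell and 1 rose. The median log2 fold change of all 11 was -5.48, and -2.72 without 2 members listed at 0 with TMZ. Among the 5 that reached 10 in both groups it was -1.62. The summed signal of the list fell from 9269 to 15627 untreated to 302 to 703. Igkc, the kappa light chain constant gene, went from 3422, 2325 and 4372 to 0, 0 and 5.84 (-10.75, and -11.38 as separate-table value), and Jchain from 607, 431 and 610 to 0, 1.38 and 2.02. All 27 immunoglobulin segments tested fell, against 33.5% of all genes. Those under 10 in every TMZ library, such as Igkc, could enter only where they were high untreated. Their count is thus fixed in part by the filter. T and NK cell genes fell in 7 of 10 cases, all 7 of them under 10 in every TMZ library, and among the 3 that reached 10 in both groups 1 rose and none fell. Cd3e, a chain of the T cell receptor complex, had 34.7, 67.9 and 55.9 untreated and was listed at 0 in all TMZ libraries. The sum over the T and NK list did not fall (334 to 525 untreated, 479 to 820 with TMZ), and 1 member, the granule protein gene Nkg7, rose by 3.71 on the log2 scale. MHC class II and dendritic genes fell in 9 of 13 cases and rose in 1 (median -1.47), including Ciita, the master activator of class II genes (64.0, 50.0 and 44.2 to 9.76, 2.66 and 4.47). Of stromal and endothelial genes 5 of 10 fell and 1 rose, but 3 were under 10 in every TMZ library, and of the 7 that reached 10 in both groups 2 fell and 1 rose. Among the 3 was Cxcl12, the marrow niche chemokine, at 555, 557 and 692 untreated and 0, 1.82 and 0.337 with TMZ. When TMZ library 5 was left out, 2 of 9 stromal genes were called lower. Nkg7 was chosen after its values were seen.

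The program that MLL fusions hold up was lower with TMZ in most members: 17 of 20 fell and 3 rose (median log2 fold change -2.05, and -1.89 as separate-table value), against 33.5% and 36.3% of all genes. Its summed signal went from 59242 to 85727 untreated to 14047 to 18877. Flt3, a cytokine receptor of progenitors, fell from 2583, 3347 and 1638 to 31.5, 22.1 and 7.37 (log2 fold change -7.03, SE 0.51, adjusted p = 1.75e-05). Hoxa9, a central target of the fusion, fell from 3404, 3548 and 1591 to 806, 675 and 475 (-2.07, SE 0.33, adjusted p = 0.000933). Untreated library 6 was the lowest of its group in both. Hoxa10 fell from 1573, 1539 and 577 to 59.9, 34.2 and 24.5 and Hoxa3 fell by 5.17 on the log2 scale. Cdk6, a cyclin D partner, fell from 32368, 32809 and 16682 to 2586, 3912 and 1641 (-3.35, and -2.71 as separate-table value). Meis1, the HOXA9 cofactor, fell least among these, from 1386, 1923 and 1953 to 792, 989 and 1379 (-0.76, adjusted p = 0.0188). Zfp521 went the other way, from 1.76, 0 and 13.6 to 191, 159 and 118. These falls stood beside the rise of Kmt2a and Mllt3 given above. Hoxa10 was chosen after its values were seen.

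Gfi1, whose locus carries the human variant, had 505, 565 and 367 untreated and 723, 504 and 555 with TMZ and was not called (log2 fold change 0.32, SE 0.21, adjusted p = 0.221). How reads of the human sequence were counted is not given in the sources used here, so this value does not check the genotype. Among GFI1, its partners and genes it is known to repress, 9 of 22 rose and 7 fell (median 0.38), with Csf1 (227, 191 and 163 to 2778, 3168 and 4424) among those that rose. Stem and progenitor genes rose in 8 of 15 cases and fell in 6, with Hoxb4 rising from 7.80, 0 and 12.2 to 256, 287 and 323 and Procr by 4.65 on the log2 scale. Without TMZ library 5, 5 of 13 were called higher and 6 lower.

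Of the genes that repair TMZ lesions, 1 of 4 direct reversal genes and 4 of 10 mismatch repair genes were called, beside 69.7% of all genes. Mgmt, which removes the methyl group from O6-methylguanine, had 131, 112 and 68.5 untreated and 74.4, 92.8 and 76.3 with TMZ (log2 fold change -0.31, SE 0.31, adjusted p = 0.392). Of the other 3 direct reversal genes, Alkbh2, a demethylase of alkylated bases, rose from 15.5, 38.8 and 25.7 to 92.8, 74.4 and 75.2. Msh6, a mismatch recognition subunit, overlapped between groups, with 1342, 1499 and 1344 untreated and 907, 1516 and 943 with TMZ, where library 5 was the highest. Its log2 fold change was -0.35 in the joint table and 0.33 as separate-table value, which is the opposite direction. Pms2, which acts after recognition, had 392, 373 and 300 untreated and 413, 526 and 401 with TMZ. Neither passed the threshold (limma adjusted p = 0.156 for Msh6 and 0.141 for Pms2). In the mismatch repair list 1 of 10 rose and 3 fell. Exo1, the exonuclease of mismatch repair, rose from 437, 305 and 222 to 615, 835 and 521 (1.06, and 0.17 as separate-table value). Msh3 fell by 0.51, Mlh3 by 0.68 and Pms1 by 1.14 on the log2 scale (Pms1 by 0.49 as separate-table value).

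In the other repair pathways the joint-table changes of some single genes shrank in the separate tables, while those of others held. Joint-table and separate-table values that stayed close were 2.68 and 2.82 for Gtf2h3, -1.97 and -1.80 for Neil2 and -1.21 and -1.37 for Xrcc4. Base excision repair had 6 higher and 3 lower of 21, and nucleotide excision repair had 11 higher and 4 lower of 20. Parp2, a sensor of strand breaks, went from 310, 299 and 346 to 2667, 2590 and 2840, a log2 fold change of 3.08 that was 0.33 as separate-table value. Ercc2, the XPD helicase, went from 235, 223 and 249 to 1901, 1925 and 1648, with 2.95 and 0.60. The endonuclease gene Ercc1 had 1.74 and 0.30 on the same scales. For these 3 genes the groups did not overlap in the joint table. Homologous recombination and Fanconi anaemia genes rose in 16 of 38 cases and fell in 11 (median 0.18). Brca1 had 842, 676 and 656 untreated and 879, 1164 and 529 with TMZ and was not called (adjusted p = 0.586), and Brca2 fell from 1325, 1383 and 1522 to 713, 782 and 660. Fanca, a core complex member, rose by 1.94 (1.26 as separate-table value). End joining genes rose in 5 and fell in 2 of 13, with Prkdc, the DNA-dependent kinase, lower by 1.28 (by 0.60 as separate-table value). Brca2 was chosen after its values were seen.

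Checkpoint genes were split, with 5 higher and 6 lower of 20. Atm, the kinase that answers double-strand breaks, went from 376, 500 and 349 to 1429, 1302 and 1119 (1.66, but 0.07 as separate-table value). Atr, which answers replication stress, fell from 1596, 1516 and 1700 to 462, 627 and 525 (-1.58, but -0.27 as separate-table value), and its effector Chek1 went from 226, 230 and 273 to 482, 620 and 345 (0.95 and 0.17). Why the tables differ was not tested. Cdc25b, a phosphatase of mitotic entry, rose by 2.18, and the damage mediator Mdc1 fell from 4233, 4462 and 4266 to 1247, 1481 and 1019. Atr and Chek1 were chosen after their values were seen.

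p53 targets were higher in most cases, while p53 itself was lower. Trp53 fell from 3254, 3602 and 3297 to 1798, 2356 and 2260 (log2 fold change -0.67, SE 0.13, limma adjusted p = 0.00262), and Mdm2, its ubiquitin ligase and target, rose from 1343, 1397 and 1457 to 1688, 1982 and 2236 (0.48, SE 0.13, adjusted p = 0.0116). Among targets of cell cycle arrest 9 of 14 rose and 1 fell, and of the 13 that reached 10 in both groups 8 rose and 1 fell (median 1.26). Cdkn1a, the p21 inhibitor of cyclin-dependent kinases, rose from 742, 719 and 820 to 2497, 2847 and 2625 (1.80, SE 0.11, adjusted p = 9.21e-06), and the TMZ libraries lay close together. Gadd45a rose from 42.6, 81.9 and 47.4 to 901, 753 and 799. Polo-like kinase genes rose as well, Plk2 from 9.21, 8.03 and 14.8 to 289, 205 and 144 and Plk3 by 4.02 on the log2 scale. Gdf15, a stress-induced cytokine, rose from 2.34, 2.14 and 3.65 to 78.0, 110 and 78.5. The AKT inhibitor gene Phlda3 rose by 2.48.

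Targets that act in cell death rose in 8 of 12 cases and fell in 1 (median 1.21). Of the 12, 2 (Perp and Eda2r) were under 10 in every untreated library and could enter only where they were high with TMZ. Among the 10 that reached 10 in both groups, 6 rose and 1 fell (median 1.01). Bax, which permeabilizes mitochondria, went from 250, 234 and 199 to 4841, 5618 and 5756 (log2 fold change 4.56, SE 0.14), and the separate-table value was 2.04. Bbc3, which encodes PUMA, rose from 92.2, 124 and 144 to 429, 624 and 774 (2.32, SE 0.27). Perp, a membrane protein of p53-dependent death that epithelial and other cells also make, went from 1.62, 0 and 1.70 to 2760, 2160 and 4882. The groups were far apart in all 3. Eda2r rose from 0, 1.33 and 2.86 to 68.5, 190 and 56.4, and the nuclease gene Aen from 303, 306 and 406 to 1125, 1847 and 1257. In the BCL2 family 9 of 15 rose and 4 fell, and the survival gene Bcl2 fell from 2978, 2763 and 2458 to 497, 918 and 931 while Bmf, a BH3-only gene, fell from 383, 589 and 457 to 242, 185 and 142. Without TMZ library 5, 9 of 13 arrest targets and 6 of 10 death targets were called higher. Phlda3, Aen, Bcl2 and Bmf were chosen after their values were seen.

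**Figure D4:**
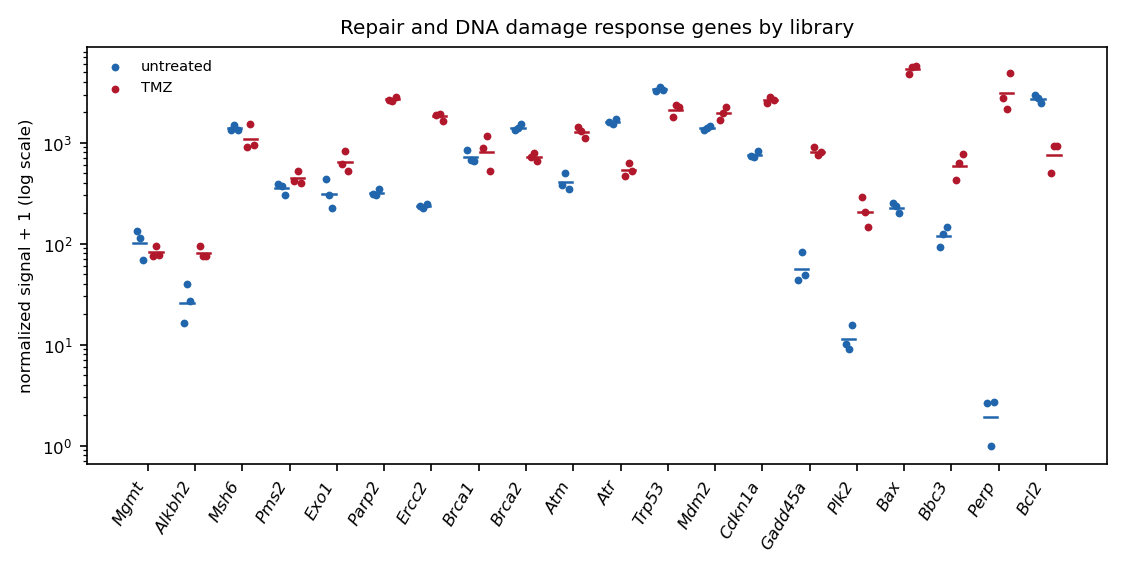
Normalized signal plus 1 on a log axis for 20 repair and damage response genes in each of the 6 libraries of 36N cells, with a bar at the geometric mean of each group. The points of Mgmt, Msh6 and Brca1 overlap between the groups, while those of Cdkn1a, Gadd45a, Plk2, Bax, Bbc3 and Perp lie higher and those of Trp53 and Bcl2 lower with TMZ.

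Proliferation genes as a whole gave no common direction, though G2/M and mitosis genes rose more often than they fell. Of 32 G1/S and replication genes 12 rose and 6 fell (median 0.18). The D-type cyclins went opposite ways: Ccnd1 fell from 1353, 1044 and 874 to 21.2, 20.5 and 37.8 (log2 fold change -5.34, SE 0.30), and Ccnd2 rose from 268, 137 and 175 to 2371, 6465 and 2130 (4.10, and 2.74 as separate-table value). Mcm2, a subunit of the replicative helicase, went from 1475, 1337 and 1381 to 4529, 8070 and 3126 (1.80), but its separate-table value was -0.42. G2/M and mitosis genes rose in 19 of 29 cases and fell in 4 (median 0.63, and 0.25 as separate-table value, where 5 of the 23 called members had the opposite direction). Top2a, topoisomerase II alpha, rose from 5770, 5948 and 5960 to 10758, 9521 and 10776, and Mki67, the Ki-67 antigen, fell from 30289, 25685 and 31089 to 13202, 12763 and 10306. Myc fell from 3183, 3452 and 2727 to 1644, 1966 and 794 (-1.18, and -1.82 as separate-table value), and its relative Mycn went from 0, 1.09 and 0 to 406, 146 and 287. MYC and nucleolar genes as a list had 10 higher and 6 lower of 26, and cytosolic ribosomal protein genes 21 higher and 13 lower of 43. Rpl18 went up by 3.27 (0.50 as separate-table value) and Rpl5 fell by 3.45 (by 2.52 as separate-table value). Reads of ribosomal protein genes can be split with their processed copies, so these are uncertain. Mcm2 and Top2a were chosen after their values were seen.

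Cholesterol synthesis was the metabolic list with the most even direction: 23 of 24 genes of synthesis and uptake rose and none fell (median 1.87, and 2.06 as separate-table value), with summed signals of 8950 to 11925 untreated and 48588 to 55380 with TMZ. Values of the groups did not overlap in any of the 24. Over all genes tested, 36.3% were called higher and 33.5% lower, and the groups did not overlap in 74.5%. Lss, lanosterol synthase, rose from 81.1, 127 and 36.0 to 2448, 2707 and 2075 (log2 fold change 5.04, SE 0.41, adjusted p = 3.14e-05, and 3.39 as separate-table value). Sqle, squalene epoxidase, rose from 211, 106 and 83.2 to 2264, 2394 and 2061 (4.17, SE 0.32). Each TMZ library was above each untreated one for both genes. Export genes, which sterol excess turns on, rose in 3 of 6 cases and fell in 1, among them the transporter gene Abca1 (145, 99.0 and 107 to 1520, 959 and 1074). All 24 synthesis and uptake genes were called higher when TMZ library 5 was left out.

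Glucose use and oxygen response genes rose more often than they fell. Glycolysis and glucose uptake had 16 higher and 2 lower of 22 (median 1.26), with the glucose transporter gene Slc2a3 rising from 281, 131 and 177 to 4381, 6319 and 4632 (4.75, and 3.84 as separate-table value) and Slc2a1 by 2.74. Hypoxia response genes had 9 higher and none lower of 14 (median 1.55), with Vegfa rising from 121, 183 and 139 to 1417, 1022 and 994. Nuclear genes of oxidative phosphorylation had 26 higher and 8 lower of 49 (median 0.46, and 0.11 as separate-table value). Its most changed member, Ndufa10 of complex I, had a log2 fold change of 3.47 that was 0.08 as separate-table value.

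Stress programs were higher across several compartments. Integrated stress response genes, which ATF4 drives on amino acid shortage, rose in 16 of 22 cases and fell in 1 (median 1.85). Slc3a2, the heavy chain of amino acid transporters, rose from 501, 454 and 486 to 22593, 34755 and 32461 (log2 fold change 5.93, SE 0.17, and 2.98 as separate-table value). Trib3, a pseudokinase target of ATF4, rose from 5.52, 2.58 and 4.34 to 148, 297 and 94.1, and Asns, asparagine synthetase, from 91.3, 100 and 51.1 to 735, 1060 and 445 (3.16, and 2.53 as separate-table value). Genes of the unfolded protein response rose in 14 of 15 cases and fell in 1 (median 1.54), with the endoplasmic reticulum chaperones Hsp90b1 (5866, 5694 and 6109 to 52768, 70513 and 43527, with 3.21 and 1.74 on the joint and separate scales) and Calr (13029, 11515 and 9798 to 44802, 68314 and 54134). In the list of NRF2 and oxidative stress genes 9 of 18 rose and 2 fell, and Nqo1, a quinone reductase, rose from 15.3, 8.76 and 3.20 to 209, 409 and 520. Heat shock chaperones had 7 higher and 2 lower of 13 (median 0.69, and 0.05 as separate-table value). Metallothioneins rose in 2 of 3 cases, with Mt2 at 15.1, 3.29 and 5.96 untreated and 544, 957 and 609 with TMZ. Asns was chosen after its values were seen.

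Cytokine feedback genes downstream of STAT5 were among those that rose. The feedback list had 9 higher and 2 lower of 17 (median 0.66). Cish rose from 23.4, 71.3 and 39.1 to 754, 1131 and 1434 (4.69, and 3.49 as separate-table value), Socs2 from 34.3, 19.0 and 27.7 to 448, 495 and 635 (4.26, and 5.08 as separate-table value), and the kinase gene Pim1 from 403, 346 and 471 to 4307, 4263 and 4434. Receptors for myeloid growth factors had 11 higher and 5 lower of 21 (median 1.39), with Kit and Il1rl1 at the high end and Flt3 at the low end. Chemokines and inflammatory cytokines had 13 higher and 2 lower of 18, of which 8 were under 10 in every untreated library, and among the 9 that reached 10 in both groups 5 rose and 1 fell. Without TMZ library 5, 5 of 10 tested were called higher and 2 lower. Ccl6 rose from 599, 745 and 1001 to 15254, 23711 and 50134, and Cxcl2 went from 0, 0.967 and 0 to 112, 186 and 88.9. NF-kB subunits and feedback genes had 3 higher and 5 lower of 16, and immediate early genes 6 higher and 4 lower of 18. Type I interferon response genes had 3 higher and 3 lower of 28, a smaller share of calls than in any other list here. Without TMZ library 5, 2 were called higher and 7 lower. Pim1 and Ccl6 were chosen after their values were seen.

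Outside the lists, the rule named a few more of the largest changes. Hpgd, which breaks down prostaglandins, fell from 26095, 28467 and 19034 to 3.77, 2.46 and 0 (log2 fold change -13.21, SE 0.54, adjusted p = 1.79e-06). Col19a1, a collagen gene, had 1433, 1626 and 1414 untreated and was listed at 0 in all TMZ libraries. Lama5, a laminin chain, rose from 7.16, 5.59 and 4.64 to 20275, 23936 and 52376 (12.10, and 10.33 as separate-table value). Hs6st2, a heparan sulfate sulfotransferase, went from 0, 0 and 3.47 to 632, 997 and 992. The change of Hmga1b depended on the table, with 9.36 in the joint table and 2.15 as separate-table value.

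The TMZ response of 36N cells was then set against that of 36S cells, as the difference between genotypes with TMZ minus the difference untreated, each taken within its own table. TMZ libraries of the 2 genotypes deviated from their group means together, with correlations of 0.392 for libraries 1 and 4, 0.447 for 2 and 5 and 0.348 for 3 and 6, and no other pair across genotypes was above 0. Deviations from a group mean cancel within the group, so a high value in 1 pair by itself lowers the others. Their levels correlated at 0.975, 0.975 and 0.962, against at most 0.9595 for 2 libraries of the same genotype. In 36S library 2 and 36N library 5 the Y-linked genes Ddx3y and Eif2s3y were at or near 0. The Y-linked genes Kdm5d and Uty were lower there but not absent. They stood at 229 and 165 in 36S library 2 and at 170 and 140 in 36N library 5. In the other TMZ libraries they were at least 1182 and 490. Libraries of the 2 genotypes may thus not be independent, and whether they share a mouse or preparation, or hold exchanged samples, was not tested. It bears on every value for the genotypes with TMZ below. Of 14584 genes tested, 41 passed a limma adjusted p under 0.05 (0.281%), 29 with a higher and 12 with a lower response in 36N, and 1014 had an unadjusted p under 0.05. The count moved with the fit: with these TMZ pairs as blocks, 66 genes were higher and 37 lower, with the library number as a block 10 and 7, and without single libraries 7 to 27 and 4 to 15. Leaving out 36N TMZ library 5 gave 13 and 6, and leaving out 36S TMZ library 2 gave 10 and 5. Of the members of the 49 lists, 1 was called, the base excision repair glycosylase gene Ogg1 (difference 1.63, SE 0.26, adjusted p = 0.0264). Its mean was 128 in untreated 36N and 380 in untreated 36S cells, against 300 and 287 with TMZ. The log2 fold change of Ogg1 within 36N was 0.19 and not called. In all 41 genes the genotypes differed more in the untreated than in the TMZ table. The absolute log2 difference between 36N and 36S was over 1 in 40 of the 41 untreated and in 1 with TMZ. Over all genes tested it was over 1 in 1248 untreated and in 406 with TMZ. Ogg1, Kdm5d and Uty were chosen after their values were seen.

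Most of the named response differences came from genes that were low in untreated 36N cells. Dip2c had 161, 136 and 138 in untreated 36S and 7.66, 6.45 and 9.72 in untreated 36N libraries, and 265, 177 and 167 against 277, 269 and 267 with TMZ (difference 4.49, SE 0.36, adjusted p = 0.000131). Fam3b, a secreted cytokine-like gene, had 67.5, 52.2 and 47.4 against 2.54, 2.23 and 0.932 untreated and 67.0, 75.9 and 118 against 64.7, 91.2 and 105 with TMZ (4.34, SE 0.52, adjusted p = 0.00513). The genotypes did not overlap untreated and overlapped with TMZ for Fam3b, and for Dip2c all untreated 36N values were under 10. Bhlhb9 was the other way round, with means of 2.45 in 36S and 47.0 in 36N untreated and 271 and 258 with TMZ (difference -3.87, SE 0.50, adjusted p = 0.00741). Genes central to the results above did not pass this test. Kit had the difference 2.05 with an adjusted p of 0.157, Cpa3 had 1.75 with 0.84, Bax 0.21 with 0.942, Cdkn1a 0.36 with 0.714 and Mgmt 0.11 with 0.983. A p that misses the threshold does not show that the genotypes responded alike.

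**Figure D5:**
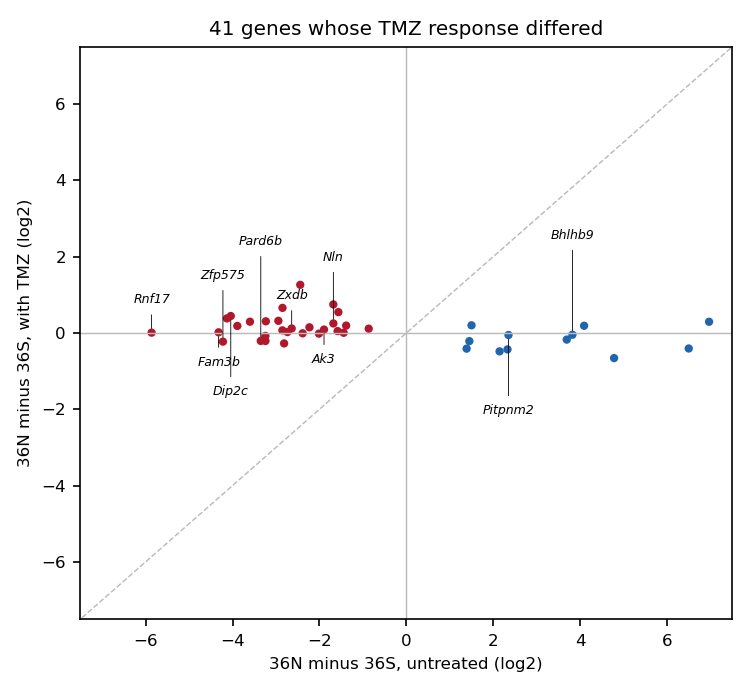
Log2 difference between 36N and 36S cells in the untreated table (horizontal axis) and in the TMZ table (vertical axis) for the 41 genes whose TMZ response differed between the genotypes (red: higher response in 36N, blue: lower), with a dashed line where the axes are equal. The points spread from -5.86 to 6.97 untreated and lie between -0.66 and 1.26 with TMZ.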

How the data were processed

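RNA-seq of 6 libraries of 36N cells (3 untreated, 3 with TMZ) was compared, with 12 libraries of 36S and 36N cells for the difference between genotypes. Per the submitters' processing notes, Salmon, DESeq2 and mm10 were used, and their versions are not stated there. The deposited signal values are counts normalized by the authors with factors that, as the same libraries show in different tables, vary between genes, in tables normalized separately. Whole reads could not be recovered (28.8 to 32.2% of low values lay within 0.1 of a whole number at the best scale), so depth is unknown and no count model was fitted.

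Values were taken as log2(value + 1), and a gene was kept where 3 columns or more reached 10. limma 3.58.1 in R 4.3.3 (limma-trend, Benjamini-Hochberg over all genes tested, threshold 0.05) gave log2 fold changes, which understate changes of low genes. The 49 gene lists, the members and the genes named were chosen with earlier results of these data known. Named were 30 genes whatever their values, the 15 largest increases and decreases with non-overlapping groups and a group mean of 50 or more, up to 4 called members per list (2 with the lowest p where none was called), and 10 genes for the difference from 36S, leaving out unnamed gene models. Some of these genes are not reported here. Other genes are said to be chosen after their values were seen. Promoters come from RefSeq (GRCm38.p6) and transcripts from GENCODE M21. On simulated data, 33% of genes changed by a log2 of 1 and 87% of those changed by 3 were recovered for TMZ against untreated, and 16% and 71% for the difference. Only 100 genes were changed at each size, among 14389 and 14584 genes. With 69.7% of genes called for TMZ against untreated, the first 2 shares do not describe recovery in that comparison. Alternatives covered the pseudocount, the filter, scaling, the trend, library weights, the replicate block and single libraries left out. Chosen after seeing the data were protein-coding genes only, both libraries 5 left out, the TMZ libraries paired across genotypes and the separate-table values.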

Additional observations from a re-analysis of the deposited data

Results flagged for a closer look

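For 10 genes the TMZ response of 36N cells differed from that of 36S cells by the limma test of the difference itself, which is what singled them out. Differences are on the log2 scale, and means are of 3 libraries per group. Dip2c had the difference 4.49, Fam3b 4.34 and Bhlhb9 -3.87, with the values given above. Zxdb, a zinc finger gene, had 2.76 (adjusted p = 0.00132), with means of 1111 in 36S and 179 in 36N untreated and 260 and 278 with TMZ. Ak3, a mitochondrial adenylate kinase, had 1.98 (adjusted p = 0.00513), with 163 and 43.7 untreated and 1062 and 1134 with TMZ. Zfp575 had 3.995 (adjusted p = 0.00699), with 307 and 15.1 untreated and 47.2 and 40.5 with TMZ. Pard6b, a polarity gene, had 3.14 (adjusted p = 0.00741), with 110 and 9.97 untreated and 52.5 and 46.2 with TMZ. Pitpnm2 had -2.41 (adjusted p = 0.00801), with 30.8 and 160 untreated and 936 and 906 with TMZ. Rnf17 had 5.87 (adjusted p = 0.0144), with 97.2 and 1.24 untreated and 20.1 and 18.5 with TMZ, and was not tested within 36N. Nln, the neurolysin gene, had 1.93 (adjusted p = 0.0144), with 712 and 229 untreated and 777 and 929 with TMZ. TMZ libraries of the 2 genotypes correlated more in pairs across genotypes than within a genotype. In 1 library of each, the Y-linked genes Ddx3y and Eif2s3y were at or near 0. The means with TMZ may thus not be independent between genotypes, and the part of this in the differences was not tested.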

How the results depend on the processing

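Leaving out 1 library at a time gave 4154 to 4927 genes higher and 3500 to 4641 lower with TMZ in 36N, and 7 to 27 higher and 4 to 15 lower for the difference from 36S. With both libraries numbered 5 left out, 3211 genes were lower. With equal totals 4668 were higher and 5350 lower (46.6% of calls higher, against 52.0%), and with quantile normalization 4809 and 5230. For the difference, array weights gave 64 higher and 55 lower, and pairing the TMZ libraries across genotypes 66 and 37. Same-numbered untreated and TMZ libraries had deviation correlations of 0.019, 0.0371 and 0.0858, and other pairs had -0.0837 to 0.0609. With 3 libraries per group and so large a change between groups, these values cannot decide whether the numbers pair them. The replicate block gave 5189 higher and 4796 lower for TMZ, and 10 and 7 for the difference.

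Of 251 genes followed, 25 changed call or direction under at least 1 of 18 alternative fits. The direction turned in these fits for Brca1, Eif2s3y, H2afz and Ogg1. Leaving out 1 library at a time gave log2 fold changes of -0.079 to 0.49 for Brca1, -3.76 to 0.83 for Eif2s3y and -0.041 to 0.069 for H2afz. Without both libraries 5 they were -0.12 for Brca1, 0.94 for Eif2s3y and -0.019 for H2afz. Quantile normalization gave -0.063 for H2afz and -0.011 for Ogg1, and equal totals -0.14 for H2afz. Among called genes, 4 that were higher in the joint table turned as separate-table values. Fbl stood at -0.10, Gins2 at -0.36, Mcm2 at -0.42 and mt-Atp8 at -0.75. The cause was not tested. Depth is unknown, so no limit from counting can be given.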
